A study of Mus musculus with 3 samples.

Results

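The nuclei described here were chosen from single-nucleus ATAC-seq, which marks accessible DNA with an inserting enzyme, for open chromatin at 5 pigment genes: Oca2, Slc24a4, Trpm1, Slc24a5 and Tyr. A nucleus was kept when at least 3 of its open features (features of 500 bp with a count above 0) overlapped the gene body plus 2 kb of these genes, when the share of its open features there was at least 3 times the 0.0545% of all nuclei pooled, and when it had at least 1 open feature in Pax3, Kit, Tyrp1 or Mlana, genes of the melanocyte lineage. The rule chose 423 of 12348 nuclei. They are called pigment-gene-open nuclei below and not by the working name, a pigment-making state open at Oca2. Open chromatin was measured and pigment making was not. Oca2 was open in 76.6% of the chosen anagen nuclei, 29.1% of the UVB ones and 0 of 4 telogen ones. UVB-exposed skin gave 55 of its 6553 nuclei, anagen skin 364 of 3753 and telogen skin 4 of 2042.

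Nuclei carrying GFP had been sorted out of back skin. The mice were Dct-rtTA; Tre-H2B-GFP animals: a fluorescent histone appears under doxycycline where Dct promoter sequence is active. All groups carried both transgenes and were given doxycycline in the drinking water for 5 days. The UVB group was a pool of 24 mice exposed 3 times to 2.2 mJ/cm2 of UVB, the anagen group was 8 mice with hair growth started by shaving and Nair depilation, and the telogen group was 12 mice in the resting phase of the hair cycle. Age is stated as 7 weeks with the treatment and 8 weeks elsewhere in the labels. Anagen and telogen shared a library and the UVB pool had its own, with technical replicates, so the effect of UVB cannot be told apart from that of its library. With 1 sample for each condition no difference here has a replicate check or a test, and every interval is a 95% interval for counting error only.

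Melanocytes make melanin inside melanosomes and pass it to keratinocytes of the hair and epidermis, while their stem cells rest in the hair follicle during telogen and are called up by hair growth or UVB. Tyrosinase, encoded by Tyr, starts the synthesis, and Tyrp1 and Dct encode its 2 related enzymes. Oca2 encodes a melanosome membrane protein that raises melanosomal pH, Slc24a5 and Slc24a4 encode sodium-calcium exchangers linked to pigmentation, and Trpm1 encodes a cation channel whose transcript is a known target of Mitf, the master transcription factor of the lineage. Mitf binds E-boxes, here the letters CATGTG or CACGTG.

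The sequences just before the annotated starts are shown for 4 of the marker genes, where the features over these starts were among the most open of their loci. The feature over the Slc24a5 start was also the most open of its locus, and that sequence is not printed. Each is the 250 bases upstream of a start, 5′ to 3′ on the gene's own strand, from RefSeq on GRCm38.p6, with the E-box in capitals, read as CACATG where CATGTG lies on the other strand. Trpm1 is shown at its internal start.
Oca2 (chr7:56239509-56239758, plus strand): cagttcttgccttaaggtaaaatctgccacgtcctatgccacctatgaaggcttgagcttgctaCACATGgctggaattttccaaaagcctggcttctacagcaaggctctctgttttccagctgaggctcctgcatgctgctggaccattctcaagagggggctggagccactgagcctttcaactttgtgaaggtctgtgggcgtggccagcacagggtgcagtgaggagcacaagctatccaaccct
Slc24a4 (chr12:102128477-102128726, plus strand): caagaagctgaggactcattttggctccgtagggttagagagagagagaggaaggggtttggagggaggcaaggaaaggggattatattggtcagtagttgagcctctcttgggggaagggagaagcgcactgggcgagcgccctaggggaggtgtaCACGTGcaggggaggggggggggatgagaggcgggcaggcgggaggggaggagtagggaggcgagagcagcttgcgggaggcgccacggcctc
Trpm1 (chr7:64185209-64185458, plus strand): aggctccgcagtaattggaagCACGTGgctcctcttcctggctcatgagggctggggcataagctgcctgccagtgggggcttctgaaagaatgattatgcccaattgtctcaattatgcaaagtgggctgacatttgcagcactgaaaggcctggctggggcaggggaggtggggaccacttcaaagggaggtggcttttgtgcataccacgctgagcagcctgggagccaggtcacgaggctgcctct
Tyr (chr7:87493513-87493762, minus strand): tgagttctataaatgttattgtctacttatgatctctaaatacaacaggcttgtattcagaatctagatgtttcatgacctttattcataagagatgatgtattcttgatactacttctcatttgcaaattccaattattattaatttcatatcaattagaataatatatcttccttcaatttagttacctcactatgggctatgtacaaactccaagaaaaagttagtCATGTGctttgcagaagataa
The E-box began 186 bases before the start in Oca2, 93 before it in Slc24a4, 229 before it in Trpm1 and 21 before it in Tyr. The Trpm1 E-box lies upstream of the open feature over that start (chr7:64185265-64185764) and not inside it. Searched on both strands, all 6 annotated promoters of the 5 markers held an E-box, 4 of them CATGTG and 2 of them CACGTG. Among all 32817 promoters of the same length, 17.6% held either motif, 12.3% CATGTG and 6.02% CACGTG. These matches are letters in a window and do not show binding.

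Open features at the markers are a description of the choice and not a finding. In the anagen pigment-gene-open nuclei, the feature over the Oca2 start (chr7:56239459-56239958) was open in 43 of 364 nuclei (11.8%), against 2.34% of the other lineage nuclei and 0.504% of the remaining nuclei. Other lineage nuclei are those outside the choice with at least 2 open features in Pax3, Kit, Tyrp1 or Mlana and a share there at least 3 times the pooled 0.0631%; they numbered 713 in UVB, 214 in anagen and 57 in telogen. In UVB the same Oca2 feature was open in 2 of 55 chosen nuclei (3.64%), 0.140% of other lineage nuclei and 0.156% of the remaining nuclei. A second Oca2 feature deep in the gene (chr7:56519072-56519571, 279562 bp from the start) was open in 11.0% of the anagen chosen nuclei and in 1 UVB nucleus. Over the Slc24a4 start (chr12:102128375-102128874) 8.79% of the anagen chosen nuclei and 1.82% of the UVB ones were open.

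The feature over the internal start of Trpm1 (chr7:64185265-64185764) was the one open in most chosen nuclei of all the marker windows. It was open in 16 of 55 UVB nuclei (29.1%), against 3.93% of UVB other lineage nuclei and 1.88% of the remaining UVB nuclei. In anagen it was open in 127 of 364 chosen nuclei (34.9%), against 9.35% of other lineage nuclei and 1.51% of the remaining nuclei. Mir211, a microRNA gene within Trpm1, lies further along the locus (chr7:64205831-64205852 for miR-211-5p, plus strand), and its mature sequence is shown for orientation with the seed in capitals.
miR-211-5p: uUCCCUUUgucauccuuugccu
Over the Tyr start (chr7:87493254-87493753) 10.9% of the UVB chosen nuclei and 14.8% of the anagen ones were open, and over the Slc24a5 start (chr2:125067835-125068334) 10.9% and 11.8% of the UVB and anagen ones. None of these start features was open in the 4 telogen nuclei.

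**Figure D1:**
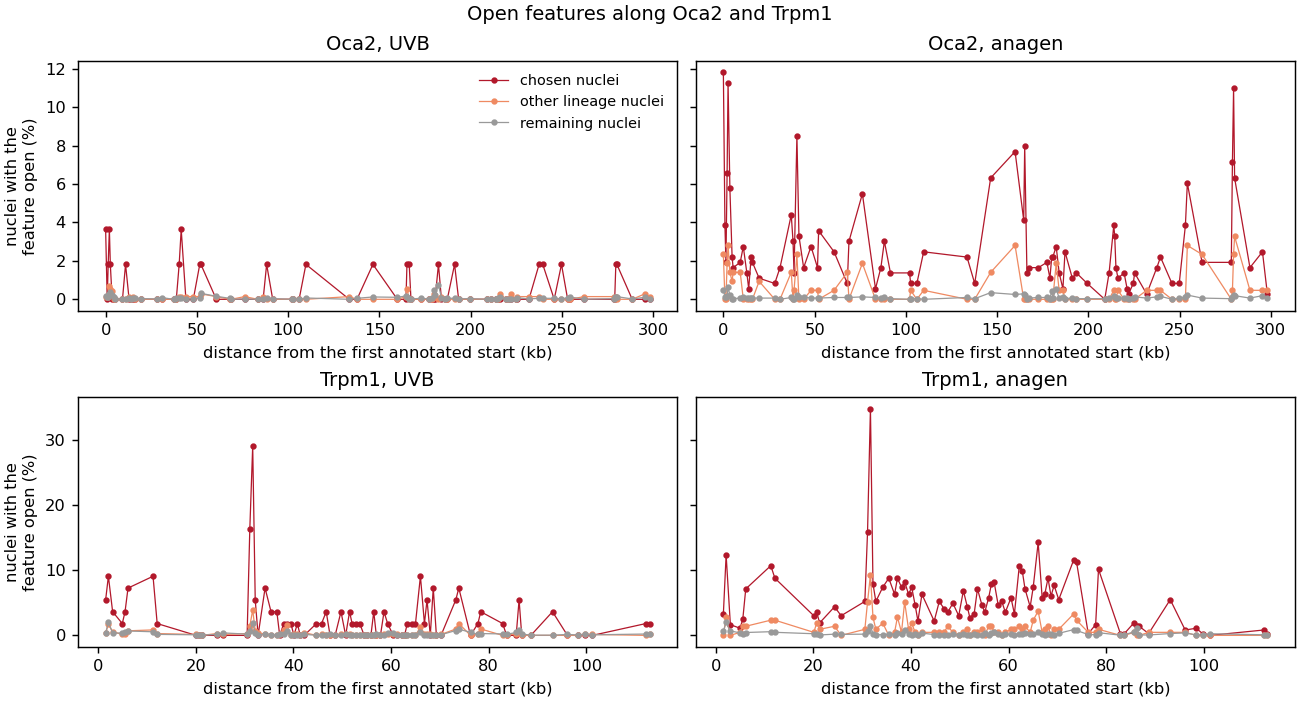
Share of nuclei with each feature open (vertical axis, %) along Oca2 and Trpm1 by distance from the first annotated start (horizontal axis, kb), in UVB and anagen, for pigment-gene-open nuclei (red), other lineage nuclei (orange) and remaining nuclei (grey); lines join neighbouring features. Trpm1 has 1 tall peak in both conditions, at 29.1% in UVB and 34.9% in anagen, whereas the Oca2 features reach 11.8% in anagen and 3.64% in UVB.

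Which markers were open in the chosen nuclei differed between conditions, and this too describes the choice and is not a finding. The same minimum of 3 marker openings was asked at unlike depths: the chosen nuclei had a median of 1513 open features in UVB and 3114.5 in anagen. Oca2 was open in 16 of 55 UVB nuclei (29.1%), 279 of 364 anagen nuclei (76.6%) and 0 of 4 telogen nuclei. Slc24a4 was open in 30.9% of the UVB nuclei, 68.4% of the anagen nuclei and 0 of the 4 telogen nuclei. Trpm1 was open in 83.6% of the UVB nuclei, 94.5% of the anagen nuclei and 3 of the 4 telogen nuclei, and Tyr in 52.7%, 58.8% and 2 of 4 in the same order. Slc24a5 was open in 14.5% of the UVB nuclei and 33.8% of the anagen nuclei. Nuclei open at Oca2 or Slc24a4 made up 47.3% of the UVB nuclei, 88.7% of the anagen nuclei and none of the 4 telogen nuclei, so in telogen the choice rested on Trpm1 and Tyr.

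Depth differs between these groups and enters such shares, so levels are also given as openings (open features summed over nuclei) per 10000 open features of the group. On that scale Oca2 stood at 2.63 (1.68 to 3.91) in UVB and 5.87 (5.48 to 6.29) in anagen, and Slc24a4 at 2.63 (1.68 to 3.91) and 4.97 (4.61 to 5.35). Trpm1 stood at 12.4 (10.2 to 14.9) in UVB and 11.5 (11.0 to 12.1) in anagen, with overlapping intervals. Tyr ran the other way, at 6.35 (4.82 to 8.21) in UVB and 2.90 (2.63 to 3.20) in anagen. Slc24a5 stood at 0.876 (0.378 to 1.73) in UVB and 1.27 (1.10 to 1.47) in anagen, with overlapping intervals. Of the openings over the 5 markers, uncorrected for gene length, Trpm1 held 49.8% in UVB and 43.4% in anagen, Tyr 25.6% and 10.9%, and Oca2 10.6% and 22.1%. The UVB nuclei had a median of 2 marker genes open and 3 marker openings, and the anagen nuclei 3 marker genes and 8 openings. All these marker openings took part in the choice, so the levels describe it and are not a result. In nuclei chosen with the other 4 markers, Tyr stood at 1.71 in UVB, on 12 openings, and 2.38 in anagen. Chosen in that way, Trpm1 stood at 2.44 and 8.94, Oca2 at 0.467 and 5.04, Slc24a4 at 0.867 and 4.10, and Slc24a5 at 0.208 and 1.08. The higher Tyr and the like Trpm1 levels of UVB thus did not hold in nuclei chosen without them.

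Many nuclei lay close to the thresholds. Exactly 3 marker openings were held by 31 of the 55 UVB nuclei, 49 of the 364 anagen nuclei and 3 of the 4 telogen nuclei. Just outside, 70 UVB, 31 anagen and 10 telogen nuclei met the other terms with 2 marker openings. A share between 3 and 4 times the pooled one was held by 25 UVB and 115 anagen nuclei, and 40 UVB and 102 anagen nuclei fell just short at 2 to 3 times. A further 48 UVB, 36 anagen and 10 telogen nuclei missed the choice only for want of an opening in Pax3, Kit, Tyrp1 or Mlana.

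Pigment-gene-open nuclei made up 0.839% of UVB nuclei (0.633% to 1.09%), 9.70% of anagen nuclei (8.77% to 10.7%) and 0.196% of telogen nuclei (0.0534% to 0.501%). Set against the other lineage nuclei the order was the same, with 55 chosen to 713 other in UVB, 364 to 214 in anagen and 4 to 57 in telogen. The chosen nuclei were deep: their median number of open features was 1513 in UVB, 3114.5 in anagen and 996.5 in telogen, against 953, 897 and 933.5 over all nuclei of the condition. In anagen 56.0% of them had more than 3 times the median of all anagen nuclei, against 23.8% of the anagen other lineage nuclei. No doublet caller was run.

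Anagen had the highest share in each band of depth that held a chosen nucleus. Among nuclei with at least 1000 and under 2000 open features the chosen share was 1.73% of 1913 in UVB, 11.3% of 883 in anagen and 0.173% of 577 in telogen. Among those with at least 2000 and under 4000 it was 1.50% of 936 in UVB, 20.8% of 510 in anagen and 0 of 239 in telogen, where the limit set for a count of 0, 3 nuclei of the total, is 1.26% (upper Clopper-Pearson bound 1.53%). Among those with 4000 or more it was 0 of 244 in UVB, with a limit of 1.23% (upper bound 1.50%), 132 of 298 in anagen (44.3%, 38.6% to 50.1%) and 0 of 109 in telogen, with a limit of 2.75% (upper bound 3.33%). When every nucleus was thinned to 500 open features before the choice, 6 UVB nuclei (0.107%), 52 anagen nuclei (1.72%) and 0 telogen nuclei remained.

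**Figure D2:**
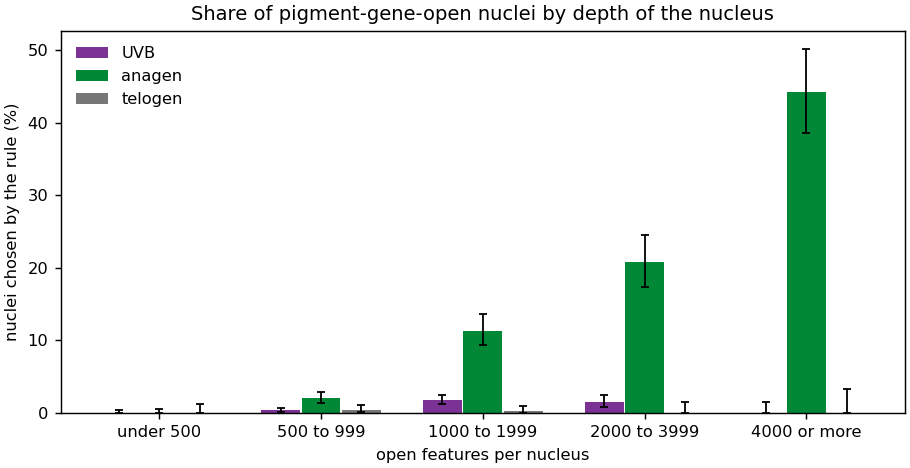
Share of nuclei chosen by the rule (vertical axis, %) in bands of open features per nucleus (horizontal axis) for UVB, anagen and telogen, with 95% Clopper-Pearson intervals. In anagen the share climbs to 44.3% in the deepest band, where UVB and telogen have 0 of 244 and 0 of 109 nuclei.

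Every barcode also bears a tag number, of which the labels give no account. In anagen, tag number 5 held 185 of the 364 chosen nuclei and 26.4% of its own nuclei were chosen, tag number 1 had 19.8%, and the other 5 with at least 50 nuclei had 2.99% to 5.48%. In UVB the share ran between 0% and 2.51% over the 15 tag numbers with at least 50 nuclei, 10 of which held a chosen nucleus. Among smaller UVB ones, tag number 12 had 2 of 18 nuclei chosen (11.1%) and tag number 22 had 1 of 29 (3.45%). In telogen it ran between 0% and 1.15% over 10 tag numbers, 3 of which held one. Among tag numbers with at least 50 nuclei, the lowest anagen value lay above the highest UVB and telogen values, although its interval (0.819% to 7.47%) overlapped theirs. With anagen tag number 5 left out, which also changes the pooled share that sets the threshold, the chosen share was 1.24% in UVB and 7.08% in anagen. Over anagen tag numbers 1, 3, 4 and 5, which held most chosen nuclei, the level of Trpm1 lay between 11.0 and 11.7 openings per 10000, Oca2 between 4.51 and 6.37, Tyr between 2.35 and 3.33 and Slc24a5 between 0.926 and 1.49. Slc24a4 lay between 3.69 and 6.85.

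**Figure D3:**
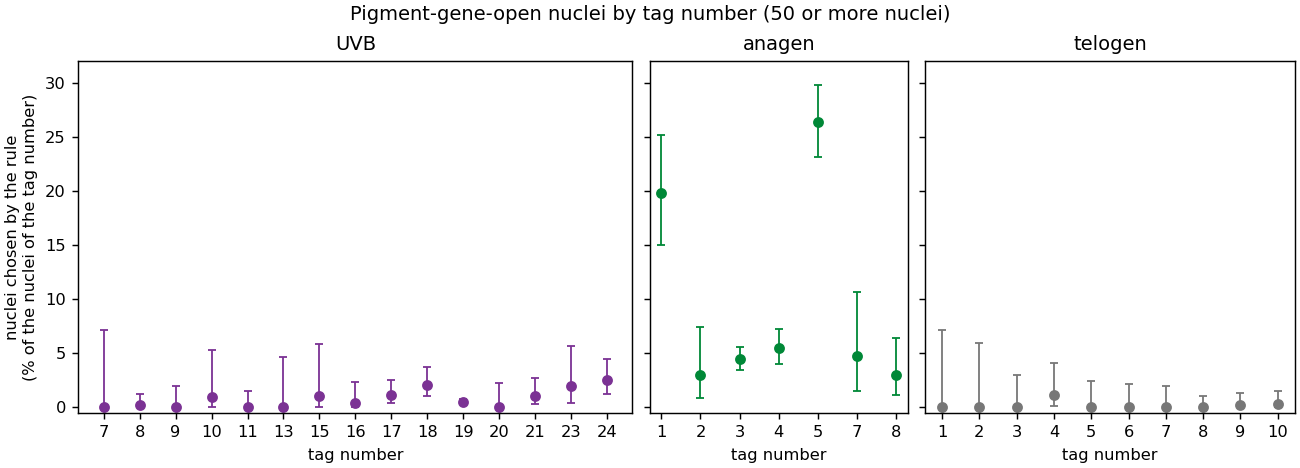
Share of nuclei chosen by the rule (vertical axis, %) for each tag number with at least 50 nuclei (horizontal axis) in UVB, anagen and telogen, with 95% Clopper-Pearson intervals. Anagen tag numbers 5 and 1 stand at 26.4% and 19.8%, and all UVB and telogen points shown at or below 2.51%.

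Counted with their copies, 189 of the 364 anagen members had a second barcode entry of the same sequence in their condition, which was dropped. Barcode sequences found in more than 1 condition belonged to 506 UVB, 217 anagen and 289 telogen nuclei, among them 4 UVB, 23 anagen and 1 telogen pigment-gene-open nuclei.

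Each marker was then read in nuclei chosen with the other 4, so that its own openings took no part in the choice of nuclei. The list of 5 markers was itself made with earlier results of these data known. The left-out ratios are therefore not independent of the data that gave the list. In anagen all 5 left-out markers were higher in the chosen nuclei than in the remaining nuclei, by 4.72-fold for Oca2 (4.17 to 5.34), 3.44-fold for Slc24a4 (3.04 to 3.90), 3.80-fold for Trpm1 (3.48 to 4.14), 3.74-fold for Slc24a5 (2.92 to 4.81) and 5.03-fold for Tyr (4.19 to 6.04). Against other lineage nuclei of the same skin, 2 of the 5 were higher with an interval above 1. Left-out Oca2 stood at 5.04 openings per 10000 in the 328 nuclei chosen without it and 3.06 in other lineage nuclei, a ratio of 1.64 (1.37 to 1.98). Left-out Slc24a4 stood at 4.10 and 2.84, a ratio of 1.44 (1.19 to 1.75). The ratios were 1.09 (0.969 to 1.22) for Trpm1, 1.21 (0.852 to 1.76) for Slc24a5 and 1.11 (0.887 to 1.40) for Tyr, with intervals that held 1. Among nuclei with at least 2000 open features the ratio was 1.26 for Oca2 (1.04 to 1.52) and 1.16 for Slc24a4 (0.949 to 1.43), and without anagen tag number 5 it was 1.69 for Oca2 (1.29 to 2.24) and 1.75 for Slc24a4 (1.28 to 2.42). Without nuclei above 3 times the median depth, left-out Oca2 had a ratio of 2.46 (1.64 to 3.79) and left-out Tyr 1.77 (1.13 to 2.86). With thinning to 500 open features the Slc24a4 ratio turned to 0.638 (0.164 to 1.80), on 4 openings.

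In UVB left-out Oca2 stood at 0.467 openings per 10000 in the 64 nuclei chosen without it, at 0.610 in other lineage nuclei and at 0.514 in the remaining nuclei, with a ratio of 0.765 (0.269 to 1.78) over other lineage and 0.907 (0.331 to 1.99) over the remaining nuclei. On these 6 openings the interval over other lineage nuclei holds the anagen ratio of 1.64, and the interval over the remaining nuclei lies below the anagen ratio of 4.72. Left-out Tyr stood at 1.71, 1.32 and 0.583 in the same order, a ratio of 1.29 (0.650 to 2.34) over other lineage and 2.93 (1.50 to 5.18) over the remaining nuclei. Left-out Slc24a4, on 11 openings, stood at 0.867 in the chosen nuclei and 0.271 in other lineage nuclei, a ratio of 3.20 (1.41 to 6.78). It became 2.00 (0.951 to 3.91) with anagen tag number 5 left out. Left-out Trpm1 and Slc24a5 had ratios of 0.981 (0.588 to 1.55) and 0.426 (0.0501 to 1.63) over other lineage nuclei. Over the remaining UVB nuclei the ratios were 1.64 (0.998 to 2.55) for Trpm1, 1.87 (0.924 to 3.38) for Slc24a4 and 1.16 (0.139 to 4.26) for Slc24a5. Of the 5 left-out markers, only Tyr had an interval above 1 over the remaining UVB nuclei. In telogen only 2 to 4 nuclei were chosen in each case and left-out Oca2 had no opening.

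**Figure D4:**
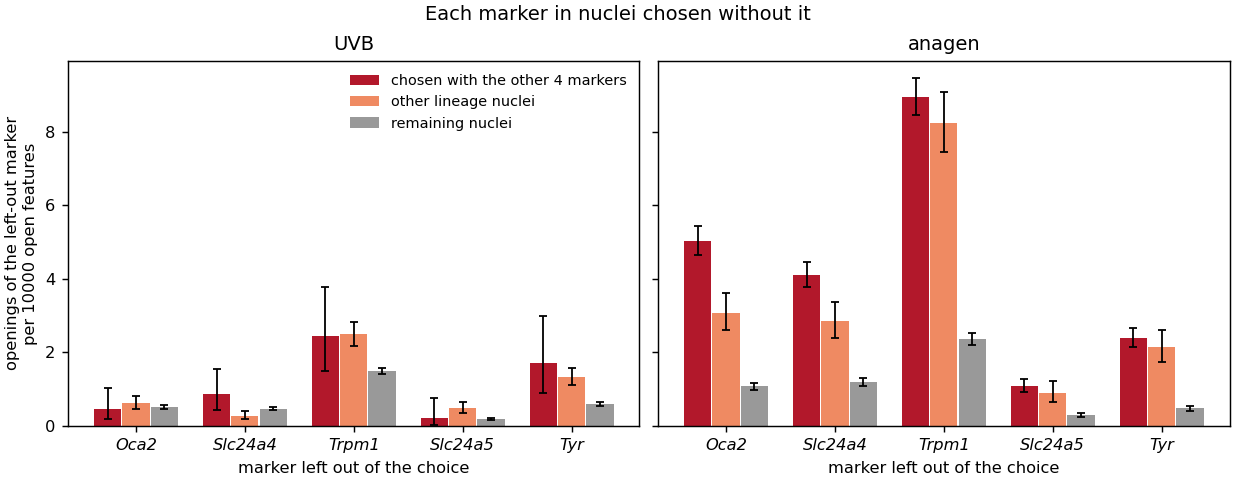
Openings of each marker per 10000 open features (vertical axis) in UVB and anagen nuclei chosen with the other 4 markers (red), in other lineage nuclei (orange) and in the remaining nuclei (grey), with 95% Poisson intervals. In anagen the red bars of Oca2 and Slc24a4 stand at 5.04 and 4.10, above the orange bars at 3.06 and 2.84, and in UVB the 3 bars of Oca2 overlap.

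The DNA beside the markers, in the 100 kb on both sides of their windows, was not used by the choice either. Beside Oca2, the anagen chosen nuclei had 1.77 openings per 10000 and other lineage nuclei 0.966, a ratio of 1.83 (1.32 to 2.58). In UVB the values were 0.766 and 0.530, a ratio of 1.44 (0.552 to 3.21) on 7 openings. Beside Slc24a4 the ratio was 1.94 (1.22 to 2.97) in UVB and 1.32 (1.05 to 1.67) in anagen. Beside Trpm1 it was 1.43 (0.992 to 2.00) in UVB and 1.04 (0.855 to 1.27) in anagen. Around Slc24a5 and Tyr all 4 intervals held 1.

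Markers of melanocytes outside the rule were also read. The choice asked for a lineage opening and the remaining nuclei leave out the other lineage nuclei, so higher levels were built in and do not check the label. Against other lineage nuclei the sum of these markers had a ratio of 1.05 (0.981 to 1.11) in anagen and 0.891 (0.772 to 1.02) in UVB. In anagen 8 of the 10 markers, Dct among them, were at least 2-fold higher in the chosen nuclei than in the remaining nuclei. Of the 14553 genes with at least 30 openings, 8.63% were (8.53% with an interval off 1 as well). Gpr143, a melanosome receptor, had 0.902 openings per 10000 in chosen and 0.163 in remaining nuclei (5.55-fold, 4.08 to 7.61). Slc45a2, a melanosome transporter, had 1.36 and 0.300 (4.54-fold, 3.59 to 5.75). The melanocortin receptor Mc1r had 1.50 and 0.386, and the lineage factor Sox10 had 2.06 and 0.541. Ednrb and Erbb3, receptors for endothelin and neuregulin, were 1.91-fold and 1.30-fold higher. In UVB 4 of the 10 were at least 2-fold higher than in the remaining nuclei, against 8.6% of 15149 genes (3.18% with an interval off 1 as well): Gpr143 (3.13-fold, 0.837 to 8.23), Mc1r (2.65-fold, 1.20 to 5.11), Slc45a2 (2.52-fold, 1.14 to 4.85) and Ednrb (2.08-fold, 0.989 to 3.86). Erbb3 was at 0.740 (0.422 to 1.20).

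Of 9 lists of markers of other cells, fibroblast, endothelial, keratinocyte, pericyte, Schwann, myeloid and T cell markers were lower as a sum in the anagen chosen than in the remaining nuclei, skeletal muscle markers were higher (0.599 against 0.449 openings per 10000; 1.33, 1.02 to 1.73) and adipocyte markers were at 0.831 against 0.825. All 8 fibroblast markers were at least 2-fold lower than in the remaining nuclei, at a summed 0.838 openings per 10000 against 7.60, and Dpt and Dcn had 3 and 4 openings. All 8 endothelial markers (0.881 against 3.46 summed) and 7 of 8 measured keratinocyte markers (0.838 against 2.29) were lower by as much, where 14.6% of all genes were (23.2% past 2-fold either way). Schwann cell markers, some shared with the lineage's neural crest origin, were mixed: Cdh19 was 2.77-fold higher, and Mbp and Scn7a were at 0.214 and 0.116 of the remaining nuclei. In the 204 anagen members above 3 times the median depth the summed levels were 0.847 for fibroblast, 0.821 for endothelial and 0.856 for keratinocyte markers, and in the 160 shallower members 0.797, 1.16 and 0.757. In UVB the chosen nuclei had 0.876 summed openings per 10000 of fibroblast markers against 4.92 in the remaining nuclei, 1.97 against 4.11 of keratinocyte markers and 1.64 against 2.13 of endothelial markers, on 8, 18 and 15 openings. The endothelial ratio (0.772, 0.431 to 1.28) had an interval that held 1. So had myeloid (0.458, 0.148 to 1.07), T cell (0.806, 0.261 to 1.89), pericyte (0.796, 0.491 to 1.22) and skeletal muscle markers (0.717, 0.232 to 1.68). Schwann markers (1.05, 0.790 to 1.38) and adipocyte markers, at 1.42 against 0.757 (1.88, 0.995 to 3.24), were higher with intervals that held 1. Of all genes 11.1% were at least 2-fold lower there (2.03% with an interval off 1 as well), and 19.7% were past 2-fold either way.

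Dct needs care because the transgene carries Dct promoter sequence, so openings of the native and the transgene copy cannot be told apart. The feature over its start (chr14:118052266-118052765) held 69.6% of the 56 Dct openings of UVB chosen nuclei and 24.3% of the 1103 of anagen chosen nuclei. Outside that feature Dct had 1.86 openings per 10000 in UVB and 5.88 in anagen chosen nuclei, against 2.83 and 4.63 in the other lineage nuclei of the same conditions.

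Outside the rule genes, the pigment-gene-open nuclei were close to the other lineage nuclei of the same skin. The rule chose the members by this kind of contrast, so nothing is read from the shares of genes called. In anagen, 1.7% of 11404 genes were at least 2-fold higher and 1.2% at least 2-fold lower, 2.9% in all, and with an interval off 1 as well the shares were 0.877% and 1.07%. None of 26 pigment genes outside the rule was past 2-fold, and their median log2 ratio was 0.09, beside -0.01 over all genes. The largest pigment gene ratio was that of Mfsd12, a melanosome cystine importer, at 0.979 openings per 10000 in chosen and 0.636 in other lineage nuclei (1.54, 1.03 to 2.38). Gpnmb (1.41, 1.05 to 1.94) and Cd63 (1.42, 1.04 to 1.96), membrane proteins of melanosomes, and Rab38 (1.25, 1.03 to 1.53), which directs cargo to them, also had intervals above 1. Ctns, a cystine exporter, was at 0.613 and 0.988 (0.621, 0.428 to 0.910). Pmel at 4.23 and 3.97, and Slc45a2 at 1.36 and 1.27 had intervals that held 1. So had Dct as a whole, at 7.77 and 7.31, but this level includes the start feature that cannot be told apart from the transgene. That feature stood at 1.89 in chosen and 2.68 in other lineage nuclei, and Dct outside it at 5.88 and 4.63, so the whole-gene level does not show that native Dct was alike.

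Among 14 measured transcription factors of the lineage none was past 2-fold in anagen and no interval lay off 1, where over all 11404 genes 2.9% were past 2-fold and 375 had an interval above 1 and 462 below it, so these counts are near those of all genes. Mitf stood at 6.22 openings per 10000 in chosen and 6.52 in other lineage nuclei, Sox10 at 2.06 in both, and Sox5, a relative of Sox10, at 11.3 and 10.2. None of 17 cell cycle genes, 13 p53 and DNA damage genes or 9 genes of stem cell maintenance was past 2-fold. The receptor Met, for hepatocyte growth factor, was at 4.71 and 3.77 (1.25, 1.05 to 1.48), and Creb1, which acts on cAMP signals, at 1.69 and 1.14 (1.48, 1.09 to 2.04). Immediate early and AP-1 genes, which respond within minutes to signals and stress, were lower as a sum, at 23.8 openings per 10000 in chosen and 27.4 in other lineage nuclei (0.871, 0.816 to 0.930), with none of 19 past 2-fold. Interferon genes (0.820, 0.706 to 0.956), endothelial markers (0.669, 0.488 to 0.926) and pericyte and smooth muscle markers (0.753, 0.590 to 0.968) were lower as sums in the same contrast, and the part of these cells was not tested. Junb (0.675, 0.540 to 0.847), Nr4a2 (0.675, 0.502 to 0.917), Ier2 (0.679, 0.497 to 0.936), Klf6 (0.702, 0.556 to 0.891) and Egr1 (0.731, 0.551 to 0.978) had intervals below 1.

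In UVB, 2.9% of 8668 genes were at least 2-fold higher in chosen than in other lineage nuclei and 11.2% at least 2-fold lower, 14.1% in all, and with an interval off 1 as well these shares were 1.44% and 1.45%. The 24 measured pigment genes had a median log2 ratio of 0.00, beside -0.09 over all genes, with Atp7a, a copper pump that loads tyrosinase, higher at 2.19 and 1.08 (2.02, 1.18 to 3.29) and Mlph, a melanosome transport adaptor, lower at 0.766 and 1.75 (0.439, 0.174 to 0.926). Of the 4 pigment genes with an interval above 1 in anagen, Rab38 had one in UVB too, while Mfsd12 at 0.657 and 0.630, Gpnmb at 0.985 and 1.02 and Cd63 at 0.876 and 0.961 had intervals that held 1. Rab38 was at 4.60 and 2.85 (1.61, 1.14 to 2.24) and Met at 3.28 and 1.64 (2.01, 1.31 to 2.99), while Junb was at 2.41 and 3.89 (0.619, 0.383 to 0.953). The immediate early sum was 34.9 in chosen and 44.7 in other lineage nuclei (0.782, 0.696 to 0.877). Endothelial markers were higher in the same contrast, at 1.64 and 0.597 (2.75, 1.44 to 4.95), on 15 openings in chosen nuclei; their part was not tested. Housekeeping genes were also lower in UVB as a sum, at 10.8 and 14.7 (0.736, 0.594 to 0.903), whereas in anagen their sums were 11.2 and 12.1 (0.922, 0.836 to 1.02). The share of open features within 1 kb of gene ends was 39.7% in UVB chosen and 43.4% in UVB other lineage nuclei, and 34.3% and 36.6% in the anagen ones; its part in the lower sums was not tested.

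The genes at the ends of the anagen ranking against other lineage nuclei rested on few openings. At the top were Cmpk1, a nucleotide kinase, with 37 openings in chosen and 1 in other lineage nuclei (11.9-fold, 2.00 to 482), Hgh1 with 31 and 1, Ntng2 with 43 and 2, Ercc3, a DNA repair helicase, with 41 and 2, and the peroxisomal transporter Abcd2 with 40 and 2, followed by Odf3b, Msi1, Gnptg, Cdc16 and Tsr3 with 31 to 37 and 2. At the bottom were Cd79a with 13 openings in chosen and 17 in other lineage nuclei (0.245, 0.110 to 0.537), Sybu with 17 and 19 (0.287, 0.140 to 0.583) and Dnajc19 with 20 and 20 (0.321, 0.164 to 0.629). Fam3c, Gbp2b, Postn, Pdk4, Nckap5, Rasgrp1 and Ccdc122 had ratios of 0.321 to 0.340. None belongs to the pigment lists, and their lower bounds at the top lay between 1.27 and 2.00.

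Single features outside all 9 rule windows were ranked in the same way. Of 18593 features with at least 20 openings in the anagen chosen nuclei, 1595 (8.58%) were at least 2-fold higher than in other lineage nuclei and 173 at least 2-fold lower; the filter asked for openings in the chosen nuclei alone, so the balance of the 2 counts is not a result. The features with the highest ratios lay in Igsf3 (chr3:101393941-101394440, open in 32 chosen nuclei and 1 other lineage nucleus; 10.3-fold, 1.72 to 418), Tex2, Pdhx, Alx1 and Smarcd1, over the start of Marchf9, at Lims2 and Gpr17, and at 3 sites with no protein-coding gene within 2 kb. Each was open in 26 to 32 anagen chosen nuclei and in 1 other lineage nucleus. They passed the filter by openings in the chosen nuclei and were picked by the same contrast, so their ratios describe the ranking and are not a result. In UVB each was open in 0 to 2 of the 55 chosen nuclei. These were shallower, with a median of 1513 open features against 3114.5 in anagen, so the low counts do not show the features to be closed there. The Igsf3 and Lims2 features were each open in 1 of the 4 telogen chosen nuclei.

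Between conditions, the UVB and anagen pigment-gene-open nuclei were compared over genes. The 4 telogen nuclei held 3717 open features in all, with at most 11 in any gene outside the rule, and are given no gene ratios. In UVB over anagen, 9.08% of 10668 genes were at least 2-fold higher and 17.4% at least 2-fold lower, 26.5% in all, and with an interval off 1 as well the shares were 5.71% and 5.11%. The UVB nuclei hold 91328 open features and the anagen nuclei 1419644, so precision is set by UVB. Of the 26 pigment genes 1 was at least 2-fold higher and 3 at least 2-fold lower, with a median log2 ratio of -0.33 beside -0.06 over all genes. In the other lineage nuclei, which are separate nuclei of the same libraries, the pigment median was -0.19 beside 0.05 over all genes, and 6.92% of 10102 genes were at least 2-fold higher and 6.75% lower, 13.7% in all (6.22% and 6.69% with an interval off 1 as well).

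**Figure D5:**
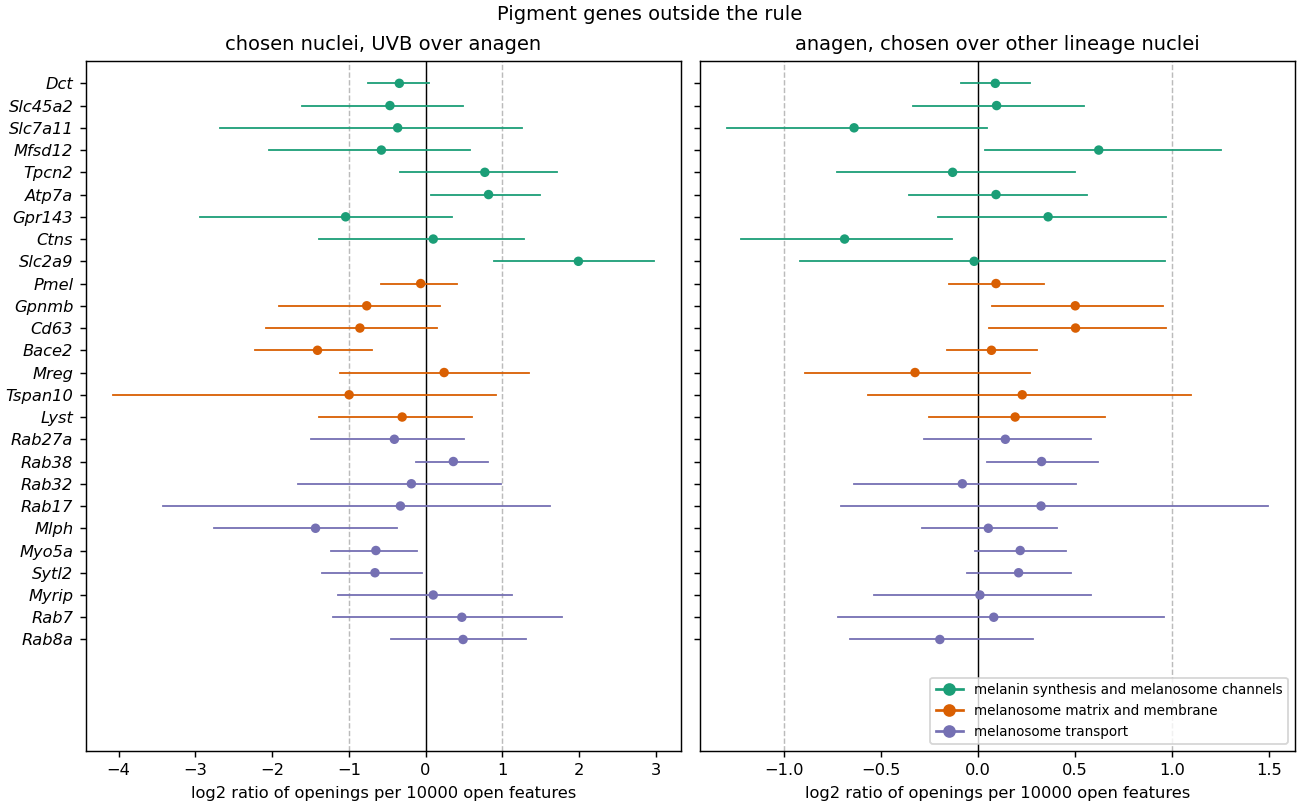
Log2 ratio of openings per 10000 open features (horizontal axis) for the 26 pigment genes outside the rule, with 95% counting intervals, for pigment-gene-open nuclei in UVB over anagen (left) and for anagen pigment-gene-open over other lineage nuclei (right; narrower axis); colours mark the 3 lists and dashed lines 2-fold. On the left Bace2 and Mlph lie furthest below 0 with intervals off it and Slc2a9 furthest above; on the right all 26 genes lie within 2-fold.

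Of the 26 pigment genes, 4 had an interval below 1 in UVB over anagen chosen nuclei and 2 had one above 1. Among all 10668 genes, 766 had one below 1 and 744 above it. Of the 4, 1 is on the melanosome matrix and membrane list of 7 genes and 3 are on the transport list of 10. Most of the 26 genes are on these lists, so no theme is read from where the 4 fall. Bace2, a protease that cuts the matrix protein Pmel, had 1.75 openings per 10000 in UVB and 4.65 in anagen chosen nuclei, a ratio of 0.377 (0.214 to 0.617). In other lineage nuclei its levels were 1.92 and 4.43, a ratio of 0.434 (0.352 to 0.534). Mlph, which joins melanosomes to the motor, was at 0.766 and 2.07 (0.370, 0.148 to 0.772) in chosen nuclei and at 1.75 and 2.00 (0.874, 0.671 to 1.14) in other lineage nuclei. Gpr143 was past 2-fold too, at 0.438 and 0.902, on 4 UVB openings and with an interval that held 1 (0.486, 0.130 to 1.27). The motor gene Myo5a was at 3.18 and 4.97 (0.639, 0.424 to 0.925), and Sytl2, a Rab27 effector, at 2.41 and 3.80 (0.633, 0.394 to 0.969). Atp7a was higher at 2.19 and 1.24 (1.77, 1.05 to 2.81), and Slc2a9, a urate transporter, at 1.20 and 0.303 (3.98, 1.85 to 7.84). Slc2a9 was also higher in other lineage nuclei, at 2.07 and 0.307. Pmel at 4.05 and 4.23, and Rab38 at 4.60 and 3.58 had intervals that held 1. So had Dct as a whole, at 6.13 and 7.77, but its 2 parts went opposite ways. The start feature that cannot be told apart from the transgene stood at 4.27 in UVB and 1.89 in anagen chosen nuclei, and Dct outside it at 1.86 and 5.88.

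Among the regulators, Ppargc1a, a coactivator that raises Mitf and pigment output in melanocytes, had 5.26 openings per 10000 in UVB and 1.44 in anagen chosen nuclei (3.64, 2.60 to 5.00). In other lineage nuclei it was at 4.07 and 1.71 (2.38, 1.86 to 3.07). Tfap2b, a transcription factor active in melanocyte stem cells, was at 1.42 and 0.409 (3.48, 1.75 to 6.43), and its relative Tfap2a at 3.94 and 2.30 (1.72, 1.18 to 2.43). Prkaca, the catalytic subunit of protein kinase A, was at 1.75 and 0.873 (2.01, 1.11 to 3.39). Lower in UVB were the cAMP phosphodiesterases Pde8a, at 0.547 and 2.13 (0.257, 0.0830 to 0.607), and Pde4d, at 8.32 and 12.8 (0.648, 0.508 to 0.815). Sox5 was at 6.13 and 11.3 (0.544, 0.409 to 0.711), Tfeb, a relative of Mitf, at 3.18 and 5.82 (0.546, 0.363 to 0.790), and Mitf itself at 6.24 and 6.22. In other lineage nuclei Pde8a, Sox5 and Tfeb had ratios of 0.376 (0.266 to 0.529), 0.514 (0.452 to 0.586) and 0.691 (0.584 to 0.819), so these went the same way in both kinds of nuclei.

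Immediate early and AP-1 genes were higher in UVB chosen nuclei as a sum, at 34.9 openings per 10000 and 23.8 in anagen (1.46, 1.30 to 1.64), and in other lineage nuclei at 44.7 and 27.4 (1.63, 1.53 to 1.74). Of the 19 genes 1 was at least 2-fold higher and 1 at least 2-fold lower in chosen nuclei: Klf6 at 3.94 and 1.65 (2.39, 1.63 to 3.41), and Egr3 at 0.109 and 0.303 on 1 UVB opening. Nr4a2 (1.98, 1.14 to 3.25), Atf3 (1.85, 1.01 to 3.17), Jun (1.77, 1.19 to 2.54) and Nr4a1 (1.58, 1.02 to 2.35) had intervals above 1. The 13 p53 and DNA damage genes had none at least 2-fold higher, 1 at least 2-fold lower and no interval off 1, at sums of 10.5 and 10.1; over all 10668 genes 9.08% were higher and 17.4% lower, and 744 intervals lay above 1 and 766 below it, so these counts are near those of all genes. Cell cycle genes summed to 10.3 and 7.76 (1.33, 1.06 to 1.64), with Mcm4, a replication helicase subunit, at 1.20 and 0.458 (2.63, 1.25 to 5.02). Interferon and antigen presentation genes summed to 6.90 and 4.34 (1.59, 1.21 to 2.06), with no single interval off 1 among the 11 measured. Both sums were also higher in UVB over anagen other lineage nuclei. Cell cycle genes stood there at 9.74 and 7.55 (1.29, 1.14 to 1.47) and interferon genes at 7.68 and 5.29 (1.45, 1.25 to 1.69).

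The 5 highest genes by the ranking in UVB over anagen chosen nuclei were P3h2, a collagen prolyl hydroxylase, Gbp2b, an interferon-induced GTPase, Ccser1, Slc43a3 and the integrin gene Itgb8. P3h2 had 3.94 openings per 10000 in UVB and 0.345 in anagen (11.4-fold, 7.21 to 17.9), and in other lineage nuclei 2.69 and 0.658. The other 4 were at least 8.14-fold higher on 11 or 12 UVB openings each, and were 1.64-fold to 3.02-fold higher in UVB over anagen other lineage nuclei. Among the lowest, Proser2, Mcl1, Ino80 and Alpk1 each had 1 opening in UVB against 181 to 324 in anagen. Proser2 stood at 0.109 openings per 10000 and 2.28, a ratio of 0.0480 (0.00121 to 0.269), and in other lineage nuclei at 0.409 and 1.76.

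Of 9 lists of markers of other cells, 3 had a sum whose interval lay off 1 between the UVB and anagen chosen nuclei. Keratinocyte markers summed to 1.97 openings per 10000 in UVB and 0.838 in anagen (2.35, 1.35 to 3.88), endothelial markers to 1.64 and 0.881 (1.87, 1.01 to 3.20) and Schwann markers to 5.91 and 3.39 (1.75, 1.29 to 2.32). In UVB 2 of 10 keratinocyte, 1 of 8 endothelial and 0 of 7 Schwann markers had no opening, and in anagen none did. The part of these cells in the gene differences above was not tested. Most counts come in pairs: of all entries above 0, 62.6% in UVB, 58.2% in anagen and 61.3% in telogen equalled 2, which is why open features and not counts were summed.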

How the data were processed

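Matrices of whole-number counts per 500 bp feature and nucleus were deposited by the authors, 1 each for UVB, anagen and telogen, over 315694 shared features. Per the submitters' processing notes, which state no versions, the tools included MACS2, Bowtie2 and SAMtools, with GRCm38 (mm10) as the genome. The counting step, any shift of cut sites, the filters on nuclei and any doublet removal have no account in the labels or files, and no doublet caller was run. Barcodes with the same sequence in a condition were counted once, keeping the deeper copy (62 copies dropped in UVB, 1721 in anagen and 543 in telogen). UVB nuclei were pooled as 1 sample, without separating its 2 technical replicates. Total counts were 16182770, 10397652 and 5225889 in UVB, anagen and telogen.

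A gene's level is the number of open features in its gene body plus 2 kb at both ends, summed over the nuclei of a group and divided by the group's open features; this scale is not corrected for gene length. Gene positions came from RefSeq GRCm38.p6 (21900 protein-coding genes, 18019 with a feature; 255 of 257 list entries matched). Genes sharing a feature with a rule gene were left out, and a ratio of 2 either way among genes with at least 30 openings in both groups together was called. A gene at 0 was set to a floor of 3 openings, with the resulting ratio held at 1 where the floor would turn its direction. Ratios have exact conditional binomial intervals, shares Clopper-Pearson and levels Poisson intervals, and the ratio step was tested on simulated data. Alternatives tried were other thresholds of the choice, depth limits, thinning, counts in place of open features, other gene filters, another scale and left-out tag numbers. Neighbouring features and features of 1 nucleus are not independent, so intervals are too narrow.

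Genes named in the text are the 9 rule genes, members of the lists, the 10 highest and 10 lowest in anagen chosen over other lineage nuclei and the 5 highest and 5 lowest in UVB over anagen chosen nuclei, with an interval off 1; the same rule over telogen was not used, because 4 telogen nuclei hold too few openings. Some genes that this rule or the lists name are not reported here. List members were picked for the text where their interval lay off 1 or their role is central, after their values were seen. The members and lists were chosen with earlier results of these data known. Intervals were computed with scipy 1.17.1 in Python 3.11.15, tables with pandas 2.3.3 and numpy 2.4.6, and plots with matplotlib 3.10.9.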

Additional observations from a re-analysis of the deposited data

How the results depend on the processing

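No paired analysis was possible because each condition was 1 sample and no result comes from a test. The chosen share was highest in anagen under all 11 alternatives, and its size moved. In UVB and anagen it was 1.45% and 12.4% with a marker share of at least 2 times the pooled one, 0.290% and 4.32% with at least 5 times, and 1.16% and 5.58% without nuclei above 3 times the median depth. With at least 5 marker openings it was 0.229% in UVB, 7.54% in anagen and 0% in telogen, and thinned to 500 open features 0.107%, 1.72% and 0% in that order. With no lineage opening required it was 1.57% in UVB and 0.686% in telogen, where telogen rests on 14 nuclei. Leaving out UVB tag number 19 gave 8.02% in anagen, and leaving out anagen tag number 5, an alternative added after seeing the data, gave 1.24% in UVB and 7.08% in anagen; both change the pooled share.

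Counts of genes past 2-fold depended on the filter, and the cause was not tested. Between chosen and other lineage nuclei in UVB (1226) and anagen (331) they were 523 and 932 with at least 2 times the pooled share, 282 and 41 with thinning, 2029 and 730 with counts in place of open features, 2111 and 982 with at least 10 openings and 2996 and 1659 with no minimum. In UVB the count was 417 with at least 2000 open features, and in anagen 661 without tag number 5. Between UVB and anagen chosen nuclei (2829) it was 1380 with at least 5 times the pooled share, 741 without nuclei above 3 times the median depth, 2 with thinning and 1687 without anagen tag number 5. The pigment median log2 ratio of chosen over other lineage nuclei was -0.30 in UVB with at least 5 times the pooled share and 0.39 on the scale of housekeeping gene ends. In anagen it was 0.25 without nuclei above 3 times the median depth, 0.30 with thinning and 0.28 on the housekeeping scale. In UVB over anagen it was -0.83 with at least 5 times the pooled share. Left-out Oca2 in anagen had a ratio of 1.26 with at least 2000 open features and 2.46 without nuclei above 3 times the median depth. Left-out Slc24a4 in anagen had 1.16 with at least 2000 open features and 0.638 with thinning, on 4 openings, which turned its direction. Left-out Tyr in anagen had 1.77 without nuclei above 3 times the median depth and 1.53 with thinning. Of 436 values of the 30 named genes and comparisons, 414 held, 21 moved and 1 turned, Nckap5 with at least 5 times the pooled share (log2 ratio 0.0079).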
